A study of Mus musculus with 4 samples.

Results

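Axon guidance ligands and receptors were described in adipocyte precursors, the stromal cells from which new fat cells form. The genes were chosen by symbol alone and cover the semaphorins of classes 3 to 7, their neuropilin and plexin receptors, Slits and Robos, netrins and Unc5 receptors, and ephrins with their Eph receptors. The rule found 67 of 20207 genes, of which 35 encode ligands and 32 encode receptors.

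Guidance proteins were first known as cues that attract or repel growing axons, and many also steer migrating cells and vessels. Secreted class 3 semaphorins bind a neuropilin, which holds the ligand, and a plexin, which carries the signal into the cell. Slits bind Robo receptors, and netrins bind the DCC family, to which neogenin belongs, or the Unc5 family. Ephrins stay on the cell surface, the A type through a lipid anchor and the B type through a membrane span, and bind the EphA and EphB receptor tyrosine kinases of a neighbouring cell. Fat is supplied by nerves and vessels, whose growth such cues can guide.

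RNA was sequenced from 4 libraries of C57BL/6 precursors sorted fresh from adipose tissue as Sca1+ CD45- CD31-, all taken at zeitgeber time (ZT) 2, counted in hours from lights on. There were 2 libraries labelled Per3 KO, a knockout of the clock gene Per3, and 2 from wild-type (WT) littermates, and all mice were young. No label describes the Per3 allele, the fat depot or any pooling of animals. Nor do the labels state that each library is its own animal, and the spread behind every p-value may be technical.

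Gene reads totalled 27950724 to 64964300 per library, and 5436 to 6750 genes had no read. Per3 had 193 and 768 reads in Per3 KO 1 and Per3 KO 2, against 121 and 170 reads in WT 1 and WT 2. Library depth differed, and in CPM (reads scaled to library depth) Per3 had 4.66 and 10.5 in Per3 KO 1 and Per3 KO 2. In WT 1 and WT 2 it had 3.16 and 7.31 CPM, and the groups overlapped. The log2 fold change of Per3 KO over WT was 0.54 ± 0.83 (SE). The scaled counts thus did not set the knockout libraries below WT. They cover the whole gene, so they do not check a partial deletion. The knockout libraries are called the KO-labelled libraries. The precursor and fibroblast markers were abundant in each library, and their summed level of 8 genes ran from 10300 to 14200 RPKM. The sum hides differences between the markers. In WT 2, which had the highest sum, Ly6a and Col1a1 had their highest RPKM, at 6980 and 3868. Pdgfra, Cd34, Dcn, Lum, Dpp4 and Pi16 had their lowest RPKM there. Lum had 142 RPKM in WT 2 and 1178 RPKM in WT 1, against 1027 and 930 RPKM in KO-labelled libraries. Sox10, which defines Schwann cells, had 0 and 3 reads in KO-labelled libraries and 0 and 1 reads in WT. Across genes, r on the log2 CPM scale was 0.855 within the KO-labelled pair and 0.794 within the WT pair.

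Precursors expressed a narrow set of the guidance genes. The level is given as RPKM, reads scaled by transcript length and library depth, which allows comparison between genes. Of the 67 genes, 16 (23.9%) had a mean of at least 1 RPKM over the 4 libraries, against 41.0% of all 20207 genes. Sema3c stood first at a mean of 39.2 RPKM and Nrp1 second at 23.6 RPKM, a ligand and its receptor. They were followed by Sema3b, Slit3, Efna5, Ntn1 and Plxna1, with means of 14.7, 9.17, 9.10, 7.23 and 5.10 RPKM. Sema3c ranked 1025 and Nrp1 ranked 1506 among all genes by mean RPKM. The 5 leading members made up 63.4% and 69.4% of the summed RPKM of all 67 in the KO-labelled libraries, against 67.6% and 64.9% in WT. At the threshold of 1 RPKM the last gene inside was Efnb1 at 1.23 RPKM, and Ephb3 and Plxna3 lay just outside at 0.893 RPKM each. In bulk RNA, fewer cells of a kind and less RNA per cell cannot be told apart.

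**Figure D1:**
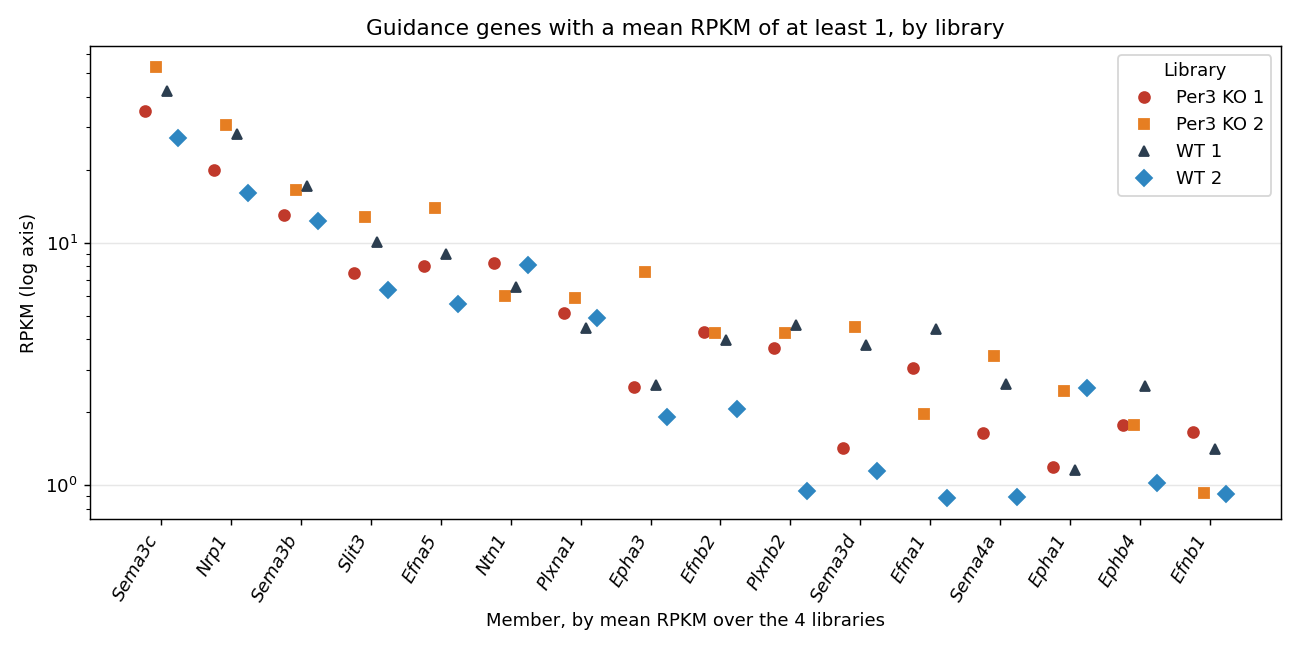
RPKM (log axis) of the 16 guidance genes with a mean of at least 1 RPKM, 1 point per library, ordered by mean. Sema3c and Nrp1 lead in each library, and the points of the KO-labelled and WT libraries interleave for most genes.

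At the other end, 8 of the 67 had no read in any library, or 11.9%, against 17.1% of all genes. They were Sema3g, Sema6c, Plxnb3, Robo4, Ntn5, Efna3, Epha6 and Epha8. A count of 0 allows up to 3 reads, or 0.0462 to 0.107 CPM (reads scaled to library depth) per library, for counting error only. Robo4 is known as the Robo of endothelial cells.

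CpG density before the start site did not follow this order. The 250 bases before the start site were read for 58 of the 67 genes from RefSeq (build GRCm38.p6, another build than that of the expression files, and 1 start per gene). The genes without an entry were Sema3b, Sema3f, Sema6a, Plxna1, Plxna4, Slit1, Ntn1, Unc5d and Efnb3. The windows below belong to a leading secreted semaphorin, its receptor, the leading Slit and ephrin, and a gene with no read, and show how dense CpG dinucleotides were in each. They run 5′ to 3′ along the gene up to the base before the start, with each CpG in capitals.
Sema3c, chr5:17574566-17574815, plus strand: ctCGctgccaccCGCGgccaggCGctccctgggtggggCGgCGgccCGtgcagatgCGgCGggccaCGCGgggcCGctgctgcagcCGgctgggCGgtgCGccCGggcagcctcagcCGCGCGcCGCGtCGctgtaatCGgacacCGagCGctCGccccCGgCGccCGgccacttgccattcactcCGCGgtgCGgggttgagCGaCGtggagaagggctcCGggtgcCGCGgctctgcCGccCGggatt
Nrp1, chr8:128358823-128359072, plus strand: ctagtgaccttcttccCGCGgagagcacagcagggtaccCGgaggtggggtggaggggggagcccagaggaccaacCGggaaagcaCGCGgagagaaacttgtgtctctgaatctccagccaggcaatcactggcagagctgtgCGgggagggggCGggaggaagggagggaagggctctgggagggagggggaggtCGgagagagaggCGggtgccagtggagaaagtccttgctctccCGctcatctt
Slit3, chr11:35121206-35121455, plus strand: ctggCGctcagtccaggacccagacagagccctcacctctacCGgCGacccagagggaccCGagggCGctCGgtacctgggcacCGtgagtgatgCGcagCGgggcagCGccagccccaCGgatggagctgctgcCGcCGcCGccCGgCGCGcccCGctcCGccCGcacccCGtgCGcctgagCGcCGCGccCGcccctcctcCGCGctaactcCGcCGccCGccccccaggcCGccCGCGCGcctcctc
Efna5, chr17:62881318-62881567, minus strand: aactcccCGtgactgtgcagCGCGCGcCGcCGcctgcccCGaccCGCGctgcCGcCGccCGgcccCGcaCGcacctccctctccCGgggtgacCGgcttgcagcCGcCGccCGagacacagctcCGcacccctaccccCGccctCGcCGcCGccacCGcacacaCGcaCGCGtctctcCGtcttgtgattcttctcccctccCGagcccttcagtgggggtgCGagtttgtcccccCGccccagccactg
Epha8, chr4:136956817-136957066, minus strand: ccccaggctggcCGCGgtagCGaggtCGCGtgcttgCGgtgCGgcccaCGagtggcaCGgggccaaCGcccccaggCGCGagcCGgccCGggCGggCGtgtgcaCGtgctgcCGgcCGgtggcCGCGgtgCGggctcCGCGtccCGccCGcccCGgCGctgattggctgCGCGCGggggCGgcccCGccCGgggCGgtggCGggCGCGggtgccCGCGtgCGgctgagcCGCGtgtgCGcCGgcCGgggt

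The windows held 39 CpGs for Sema3c, 11 for Nrp1, 35 for Slit3, 32 for Efna5 and 46 for Epha8. Epha8, without a read, thus had more than any of the expressed genes shown. Its window held the most CpGs of the 58 read, so it is an extreme. Among the other genes without a read, the ratio of observed to expected CpG was 0.115 for Ntn5, 0.116 for Plxnb3 and 0.131 for Robo4. It was 0.352 for Sema3g, 0.611 for Epha6, 0.724 for Sema6c and 0.774 for Efna3. Nrp1, second by level among the members, had the fewest CpGs of the 5 shown. Over the 13 windows of genes with at least 1 RPKM the median ratio of observed to expected CpG was 0.623, and over the 45 with less it was 0.644. The same medians over all genes of the tables with a window were 0.750 for 5859 genes with at least 1 RPKM and 0.356 for 7737 genes with less. Guidance genes under 1 RPKM were thus about as CpG-rich as those above it, where genes at large showed a wide gap. As a check of the start sites, bases just after each were sought in known transcripts of the gene, and 62 of 74 windows matched. Among genes with at least 1 RPKM, the windows used for Sema4a, Sema3d and Efnb1 did not match, at ratios of 0.0901, 0.296 and 0.578. Among the others, those of Ephb2, Robo2, Sema4c and Sema6c did not, at 0.687, 0.466, 0.611 and 0.724. The medians include these windows. This is a description without a test, since genes share base composition and ancestry.

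**Figure D2:**
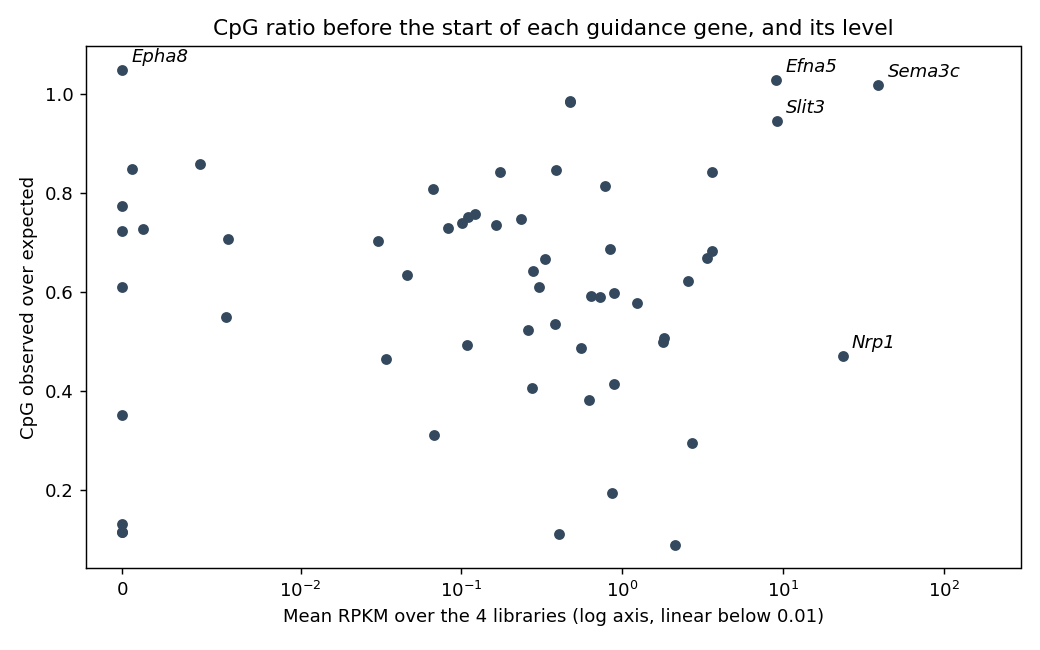
Ratio of observed to expected CpG in the 250 bases before the start (vertical axis) and mean RPKM over the 4 libraries (log axis, linear below 0.01) of 58 guidance genes, 1 point per gene. Genes at 0 RPKM spread from 0.115 to as high as Sema3c, and Nrp1 lies at 0.472.

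Letter matches of motifs were also counted on both strands of the same windows. They are set against 13596 genes of the tables with a window and against the first windows of 27018 RefSeq genes. The E-box CACGTG, a site that clock proteins can bind, occurred in 3 of 58 (5.17%), against 7.16% of these table genes and 6.05% of these RefSeq genes. The 3 genes were Sema6d, Robo2 and Epha8. The D-box TTATGTAA occurred in 0 of 58, against 0.772% of the same table genes and 0.862% of the same RefSeq genes. The GC box GGGCGG occurred in 42 of 58 (72.4%), against 46.3% of the same table genes and 32.9% of the same RefSeq genes. A GC box can overlap the CpGs counted above.

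Among the class 3 semaphorins, Sema3c (mm9 chromosome 5, 17080634 to 17236085) encodes a secreted cue for neural crest and vessels. Its level was 34.9 and 52.7 RPKM in the KO-labelled libraries, against 42.1 and 26.95 RPKM in WT. On the RPKM scale the highest library was KO-labelled and the lowest was WT, with the other 2 between them. Sema3c alone held 65.1% to 69.9% of the summed RPKM of the 7 class 3 genes. Sema3b (chromosome 9, 107500446 to 107507733) had 13.0 and 16.4 RPKM in KO-labelled libraries and 17.1 and 12.3 RPKM in WT, which overlap. Sema3d, at 1.42 and 4.49 RPKM in KO-labelled libraries against 3.78 and 1.14 RPKM in WT, varied more within each group than between them. Sema3a, the repellent after which the class was first described, had 0.929 and 1.09 RPKM in KO-labelled libraries against 1.11 and 0.326 RPKM in WT.

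Membrane-bound semaphorins of classes 4 to 7 were lower, and 1 of 13 reached a mean of 1 RPKM. This was Sema4a (chromosome 3, 88239884 to 88265104), at 1.65 and 3.40 RPKM in KO-labelled libraries and 2.60 and 0.897 RPKM in WT. The spread of Sema4a within WT was close to 3-fold, and the groups overlapped. Sema7a, the member with a lipid anchor, had 0 and 25 reads in KO-labelled libraries against 20 and 6 reads in WT.

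The receptor side of the semaphorin system was led by neuropilin 1. Nrp1 (chromosome 8, 130882973 to 131029373), which binds class 3 semaphorins and is also a co-receptor of VEGF, had 20.0 and 30.5 RPKM in KO-labelled libraries and 27.9 and 16.01 RPKM in WT. It made up 97.5% to 98.7% of the summed RPKM of the neuropilins. Nrp2 had 0.507 and 0.416 RPKM in KO-labelled libraries against 0.611 and 0.365 RPKM in WT, but its RPKM in WT 2 was scaled by a transcript 1.42 times as long as in the other libraries. Reads do not carry this difference, and Nrp2 had 175 and 240 reads in KO-labelled libraries against 195 and 140.4 reads in WT.

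Plexin A1, a signalling partner of neuropilins, was the leading plexin. Plxna1 (chromosome 6, 89266310 to 89312607) had 5.14 and 5.89 RPKM in KO-labelled libraries and 4.45 and 4.91 RPKM in WT, the narrowest range, as a ratio, among the 7 leading members. Plxnb2, a receptor for class 4 semaphorins, had 3.69 and 4.22 RPKM in KO-labelled libraries against 4.56 and 0.945 RPKM in WT, so that WT 2 stood alone at the low end. Plxna3 had 1.11 and 1.03 RPKM in KO-labelled libraries against 0.585 and 0.850 RPKM in WT. Plxna4, Plxnb1 and Plxnb3 had at most 11 reads in any library.

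In the Slit system the ligand exceeded its Robo receptors. Slit3 (chromosome 11, 34934958 to 35522005), a secreted ligand, had 7.47 and 12.7 RPKM in KO-labelled libraries and 10.1 and 6.38 RPKM in WT. It held 95.2% to 97.0% of the summed RPKM of the 3 Slits. Slit2 had 0.351 and 0.568 RPKM in KO-labelled libraries against 0.313 and 0.325 RPKM in WT. Slit1, known mainly from the nervous system, had 2 and 11 reads in KO-labelled libraries against 0 and 0 reads in WT.

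Robo1 (chromosome 16, 72663394 to 73046345), the main Robo found, had 0.653 and 0.669 RPKM in KO-labelled libraries and 0.941 and 0.310 RPKM in WT. The KO-labelled values lay between those of WT. Robo2 had 0 reads in both KO-labelled libraries, against 73 and 0.9912 reads in WT, so its reads came from WT 1. Summed over the 3 Robos found, the level was 0.653 and 0.669 RPKM in KO-labelled libraries and 1.07 and 0.313 RPKM in WT, below that of Slit3 in each library.

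Netrin 1, a secreted protein related to laminins, was the leading netrin. Ntn1 (chromosome 11, 68022866 to 68200328) had 8.25 and 6.01 RPKM in KO-labelled libraries and 6.58 and 8.10 RPKM in WT, and the groups overlapped. Ntn4, a netrin of basement membranes, had 0 and 75 reads in KO-labelled libraries against 2 and 0 reads in WT. Among the Unc5 receptors, which mediate repulsion by netrin, Unc5b (chromosome 10, 60225343 to 60294329) had 0.902 and 0.0917 RPKM in KO-labelled libraries against 0.489 and 0.418 RPKM in WT. The extremes of Unc5b were both KO-labelled libraries. Unc5a had 32 and 1.99 reads in KO-labelled libraries against 1.997 and 0 reads in WT, and Unc5c and Unc5d had at most 2 reads in any library. Ntn4 overlaps Gm8580 and Unc5a overlaps Hk3 in the files' coordinates, and reads of these pairs cannot be told apart. Gm8580 had 55.91 and 249.8 reads in KO-labelled libraries and 50.98 and 138.9 reads in WT, and Hk3 had 3.965 and 57.9 reads in KO-labelled libraries and 3.98 and 0 reads in WT.

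Of the ephrin-A ligands, Efna5 (chromosome 17, 62952306 to 63230666) was highest, with 7.99 and 13.8 RPKM in KO-labelled libraries and 8.98 and 5.59 RPKM in WT. Efna1, a ligand induced by inflammatory signals in vessels, had 3.06 and 1.97 RPKM in KO-labelled libraries against 4.41 and 0.890 RPKM in WT. Here again WT held both the highest and the lowest library. Efna3 and Efna4 lie beside Efna1 on chromosome 3 and were at or under 1.549 RPKM in each library.

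Ephrin B2, known for marking arterial vessels, led the ephrin-B ligands. Efnb2 (chromosome 8, 8617439 to 8660773) had 4.27 and 4.25 RPKM in KO-labelled libraries and 3.98 and 2.07 RPKM in WT. Efnb1, whose human counterpart is mutated in craniofrontonasal syndrome, had 1.66 and 0.932 RPKM in KO-labelled libraries against 1.41 and 0.919 RPKM in WT.

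Epha3 (chromosome 16, 63545044 to 63863983), a receptor that binds ephrin A5, led the Eph receptors. It had 2.55 and 7.54 RPKM in KO-labelled libraries and 2.58 and 1.90 RPKM in WT, so that Per3 KO 2 alone was high. Epha1 had 1.19 and 2.46 RPKM in KO-labelled libraries against 1.16 and 2.51 RPKM in WT, with 1 high and 1 low library in each group. Ephb4, the partner of ephrin B2 on veins, had 1.78 and 1.77 RPKM in KO-labelled libraries against 2.57 and 1.02 RPKM in WT. Ephb3 had 1.04 and 0.739 RPKM in KO-labelled libraries against 0.721 and 1.07 RPKM in WT.

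**Figure D3:**
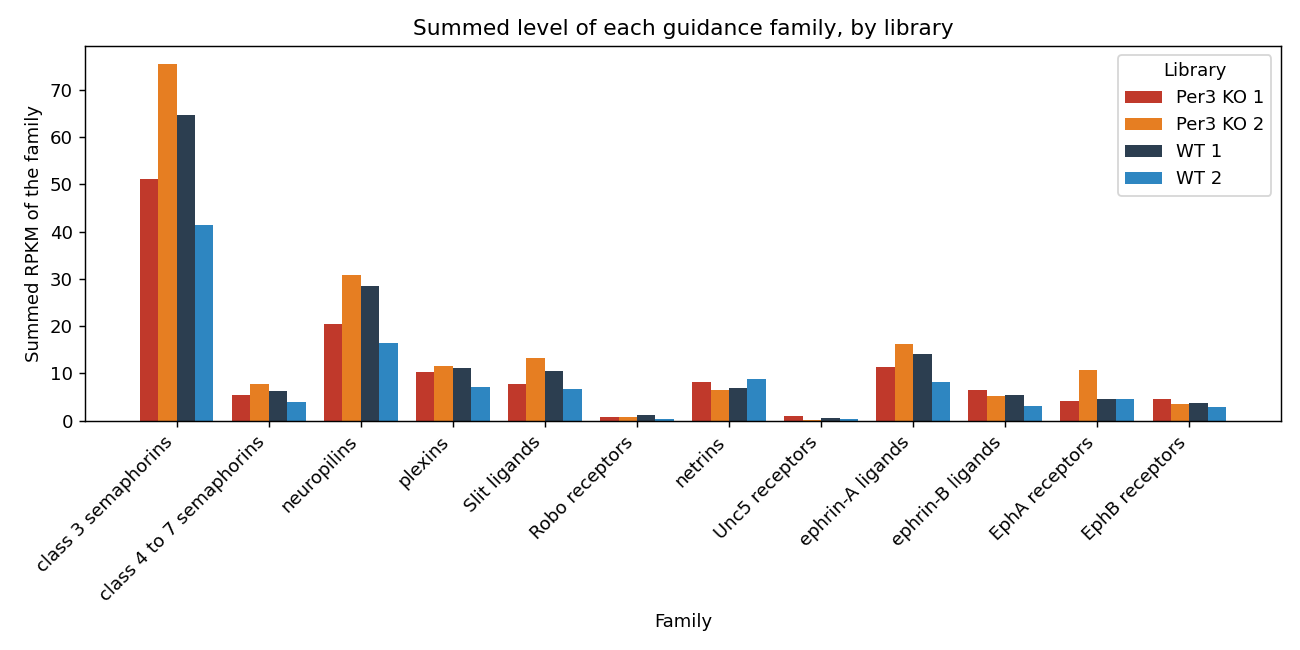
Summed RPKM of each guidance family (bars, 1 per library). Class 3 semaphorins reach 51.2 and 75.5 RPKM in KO-labelled libraries and 64.7 and 41.3 RPKM in WT, while Robo and Unc5 receptors stay at or under 1.07 RPKM.

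Several leading genes had their highest level in the same library. On the scale of CPM, with totals scaled by TMM (trimmed mean of M-values), 7 of the 16 genes with at least 1 RPKM were highest in Per3 KO 2, namely Sema3c, Sema3d, Sema4a, Nrp1, Slit3, Efna5 and Epha3. Of these 7, Sema4a and Efna5 were lowest in WT 2 and the others in Per3 KO 1. Pdgfra, a receptor that marks the precursors, had 211 and 453 CPM in KO-labelled libraries and 355 and 246 CPM in WT. Its highest and lowest library were those of Sema3c, at 307 and 439 CPM in KO-labelled libraries against 370 and 330 CPM in WT. The other listed precursor markers did not share that highest library. Cd34, Dcn, Lum, Dpp4 and Pi16 were highest in WT 1, and Ly6a and Col1a1 in WT 2. The part of precursor content in the levels of these genes was not tested. Among all tested guidance genes, 15 of 48 were highest in Per3 KO 2, against 25.8% of all genes tested.

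The comparison of KO-labelled with WT precursors asked whether guidance gene levels differ by the Per3 genotype on the labels. No guidance gene passed. Of the 67 genes, 48 had enough reads to be tested and 19 did not. edgeR's quasi-likelihood test called 0 of the 48 at an adjusted p under 0.05, against 0 of 12494 genes tested (0.00%). At an unadjusted p under 0.05 edgeR gave 1 of the 48, Plxnc1, against 2.06% of all genes tested. DESeq2 called 0 of the 48, against 0.112% of all genes tested, and had 3 at an unadjusted p under 0.05, against 3.91% of all genes tested. With 2 against 2 libraries no exact permutation test can reach the threshold.

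The log2 fold change of KO-labelled over WT was positive for 23 and negative for 25 of the 48, against 50.6% positive over all genes tested. The median was -0.05, against 0.01 over all genes tested. By family the median was 0.09 for 6 class 3 semaphorins, 0.15 for 12 semaphorins of classes 4 to 7, -0.22 for 6 plexins, -0.21 for 4 ephrin-A ligands, 0.28 for 3 ephrin-B ligands, 0.41 for 5 EphA and 0.14 for 4 EphB receptors. In the families with at most 2 tested genes it was -1.93 for netrins, -0.30 for neuropilins and 0.13 for Slits, with 1 Robo at -0.10 and 1 Unc5 receptor at -0.12. Ligands had a median of 0.08 over 29 genes and receptors -0.10 over 19. These counts hold only genes that passed the filter on low reads and are a description.

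The leading members had small fold changes with wide errors. Sema3c had a log2 fold change of 0.09 ± 0.56 (SE), Nrp1 -0.04 ± 0.55 and Slit3 0.04 ± 0.51. Ntn1 stood at -0.36 ± 0.53, Efna5 at 0.33 ± 0.51 and Plxna1 at -0.07 ± 0.50. Each of these 6 changed sign with 1 library left out, while Sema3b, which follows Nrp1 by level, ranged from -0.40 to -0.16. Both KO-labelled libraries lay below both WT libraries in CPM for Sema3b, so its sign here was all but fixed in advance. Sema3c became -0.19, Slit3 -0.35 and Efna5 -0.07 without Per3 KO 2, and Slit3 -0.04 without WT 2. Nrp1 became 0.14 without WT 1 and 0.19 without Per3 KO 1, and Ntn1 0.09 and Plxna1 0.27 without WT 2. The receptor gene Epha3 stood at 0.89 ± 0.62 and at -0.04 without Per3 KO 2. Its levels were 18.0 and 50.4 CPM in KO-labelled libraries, against 18.2 and 18.7 CPM in WT, so that 3 of 4 libraries nearly coincided. Plxnb2 stood at 0.39 ± 0.64, and at 1.55 without WT 1 and -0.24 without WT 2.

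Other members high in their families were as uncertain. Sema4a stood at 0.34 ± 0.70, Slit2 at 0.22 ± 0.77, Robo1 at -0.10 ± 0.70 and Unc5b at -0.12 ± 1.12 (SE). Among ephrins, Efna1 stood at -0.19 ± 0.85 and Efnb1 at -0.08 ± 0.71. Among Eph receptors, Epha1 stood at -0.40 ± 0.76, Ephb3 at -0.35 ± 0.75 and Ephb4 at -0.21 ± 0.60. Each of these errors was wider than the fold change itself.

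**Figure D4:**
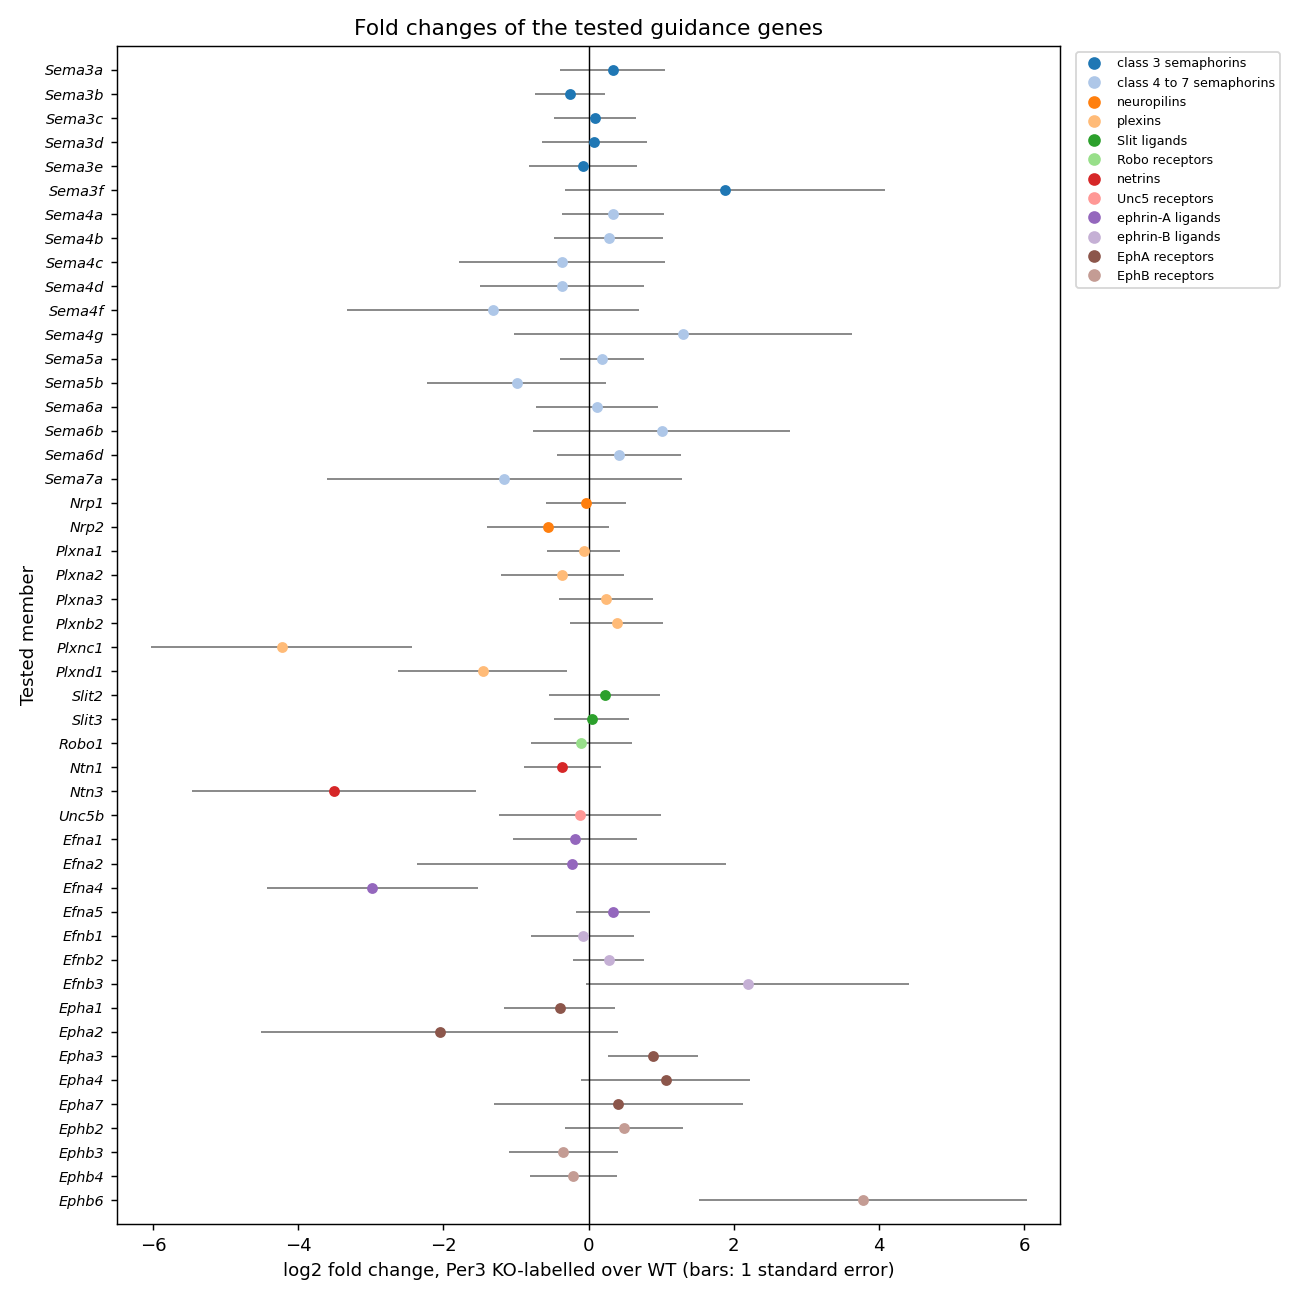
Log2 fold change of KO-labelled over WT (horizontal axis, points) with 1 standard error (bars) for the 48 tested guidance genes, coloured by family. Most points lie within 1 of 0, and Plxnc1, Ntn3, Efna4 and Ephb6 lie farthest from 0.

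Both KO-labelled libraries lay apart from both WT libraries in TMM-scaled CPM for 9 of the 48 genes (18.8%), against 26.0% of all genes tested. There were 4 above, against 14.6% of all genes tested, and 5 below, against 11.5%. On the lower side this share was close to the background.

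Plexin C1 was the widest apart on the lower side. Plxnc1 (chromosome 10, 94253612 to 94407212), the receptor of Sema7a, had 11 and 2.961 reads in KO-labelled libraries against 143 and 47 reads in WT. In CPM this was 0.153 ± 0.159 in KO-labelled libraries and 2.88 ± 1.21 in WT (SD, n = 2 each). Its log2 fold change was -4.23 ± 1.80 (SE), with an edgeR adjusted p = 1.00 and a DESeq2 adjusted p = 0.841. With a library left out it ranged from -6.04 to -3.42, the first without Per3 KO 1 and the second without Per3 KO 2. Plxnc1 is also expressed by leukocytes, whose 7 listed markers in the tables summed to 22.3 and 19.9 CPM in KO-labelled libraries and 15.5 and 35.4 CPM in WT. That sum overlapped between the groups, and 1 of 5 tested leukocyte markers was positive and 4 negative. Of these, Cd52 had 0 and 0 reads in KO-labelled libraries against 28 and 126 reads in WT (DESeq2 adjusted p = 0.0258, edgeR adjusted p = 1.00), and S100a8 had 0 and 0 reads in KO-labelled libraries against 10 and 35 reads in WT. The pan-leukocyte gene Ptprc had 4 and 50 reads in KO-labelled libraries against 0 and 5 reads in WT. The part of leukocyte RNA in the Plxnc1 result was not tested.

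Ephrin A4 and netrin 3 lay below WT at low counts. Efna4 (chromosome 3, 89137315 to 89141950) had 17 and 41 reads in KO-labelled libraries and 63 and 142 reads in WT, with a log2 fold change of -2.98 ± 1.45 (SE). Without WT 2 it was -1.74. Ntn3 (chromosome 17, 24340791 to 24346332) had 0 and 68 reads in KO-labelled libraries against 105 and 188 reads in WT, and its log2 fold change of -3.51 ± 1.96 reached from -10.54 without Per3 KO 2 to -2.52 without WT 2. Ntn3 overlaps Tbc1d24 in the files' coordinates, no source used here says whether counting used strand, and reads of the pair cannot be told apart. Tbc1d24 had 601.3 and 1153 reads in KO-labelled libraries and 534.8 and 322.1 reads in WT.

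Sema3b and Nrp2 were the other genes below WT, both with narrow gaps. Sema3b stood at 78.8 ± 10.1 CPM in KO-labelled libraries and 94.6 ± 0.0832 CPM in WT (SD, n = 2 each), with a log2 fold change of -0.26 ± 0.48 (SE). Its groups overlapped on the RPKM scale above. Nrp2 stood at 3.76 ± 0.659 CPM in KO-labelled libraries and 5.55 ± 0.659 CPM in WT, with -0.56 ± 0.84 (SE).

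On the higher side were Ephb6, Efnb2, Sema6d and Sema4b. Ephb6 (chromosome 6, 41555481 to 41570506), an Eph receptor without kinase activity, had 116 and 93 reads in KO-labelled libraries against 0 and 7 reads in WT. Its log2 fold change was 3.78 ± 2.26 (SE, edgeR adjusted p = 1.00), and 9.69 without WT 2 and 2.75 without WT 1. Efnb2 stood at 31.8 ± 1.34 CPM in KO-labelled libraries and 26.3 ± 5.94 CPM in WT, with 0.28 ± 0.49, and Per3 KO 2 at 30.9 CPM lay next to WT 1 at 30.4 CPM. Sema6d had 4.18 and 6.00 CPM in KO-labelled libraries and 4.10 and 3.48 CPM in WT, with 0.42 ± 0.86. Sema4b had 6.16 and 6.42 CPM in KO-labelled libraries against 5.14 and 5.20 CPM in WT, with 0.28 ± 0.75 (SE).

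**Figure D5:**
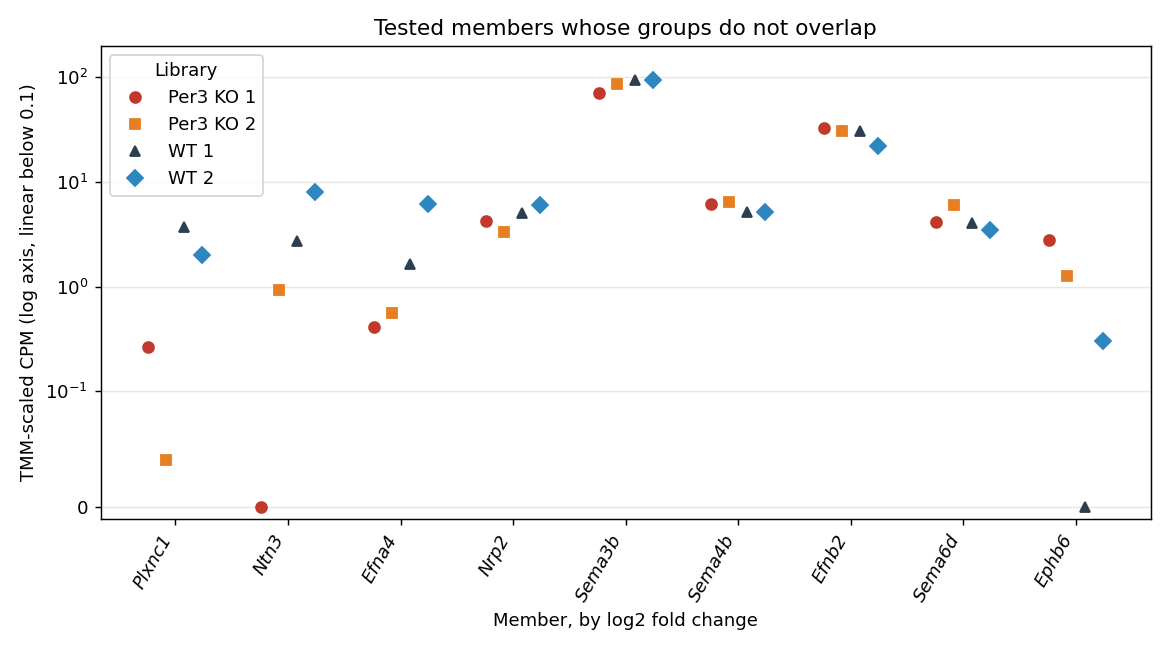
TMM-scaled CPM (log axis, linear below 0.1) of the 9 tested guidance genes whose KO-labelled and WT libraries did not overlap, 1 point per library, ordered by log2 fold change. The gaps are wide for Plxnc1, Ntn3, Efna4 and Ephb6, all under 10 CPM, and narrow for the others.

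The errors were wider for genes at low level. Between the libraries of a group, log2(CPM + 0.5) of tested guidance genes differed by a median of 0.57 in the KO-labelled pair and 0.83 in the WT pair, against 0.55 and 0.90 over all genes tested. The median standard error of the log2 fold change was 0.58 for 16 genes with at least 1 RPKM and 1.16 for the other 32 tested.

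Partners of the chosen families were read from a separate list. Of 21 listed receptors, ligands and co-receptors in the tables, 20 were tested, 14 with a positive and 6 with a negative log2 fold change (median 0.16), and 0 passed in edgeR or DESeq2. Itgb1, an integrin subunit that also binds Sema7a, had a mean of 35.4 RPKM. Neogenin, a receptor of netrins and RGM proteins, was well above the Unc5 receptors, with Neo1 at 8.44 and 11.8 RPKM in KO-labelled libraries and 9.10 and 6.65 RPKM in WT. The related receptor gene Dcc, named after its values were seen, had 10.9 and 22.98 reads in KO-labelled libraries against 6.997 and 7.882 reads in WT. Rgmb, a ligand of neogenin and co-receptor of BMPs, had a mean of 6.82 RPKM.

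By p, Cd72 and the Slit-binding proteoglycan gene Gpc1 came first on the higher side of that list. Cd72, a receptor of Sema4d on B cells, had 80 and 138 reads in KO-labelled libraries against 2.908 and 0 reads in WT (log2 fold change 5.41 ± 2.22). It was the only listed partner with an unadjusted p under 0.05, against 2.06% of all genes tested. The B cell gene Cd79a had 183 and 279 reads in KO-labelled libraries and 96 and 157 reads in WT, and its part in the Cd72 result was not tested. Gpc1 stood at 1.11 ± 0.95. On the lower side were Erbb2 at -1.06 ± 0.97 and Timd2 at -1.06 ± 2.57 (SE).

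Of the listed intracellular effectors, 48 of 50 in the tables were tested, 26 positive and 22 negative (median 0.04), and 0 passed in edgeR or DESeq2. The actin-severing gene Cfl1 and the GTPase genes Rhoa and Cdc42 were the most abundant, with means of 185, 176 and 153 RPKM. Gipc1, an adaptor that binds the tail of Nrp1, had 2.46 and 5.24 RPKM in KO-labelled libraries and 1.89 and 0.409 RPKM in WT (1.59 ± 0.87 SE), and Enah stood at 1.45 ± 0.92. On the negative side the smallest p belonged to the kinase gene Pak1 at -1.34 ± 0.98 and Dock1 at -0.75 ± 0.55. Of 9 listed proteases that cut guidance proteins, 3 were positive and 6 negative (median -0.16), and 0 passed. Mmp2, Mmp14 and Adamts1 led with means of 259, 84.3 and 65.7 RPKM. Furin, which cuts class 3 semaphorins, stood at 0.67 ± 0.50 and Adam10, a sheddase of ephrins, at 0.56 ± 0.47, against -0.97 ± 0.70 for Mmp14 and -0.61 ± 0.57 for Pcsk6 (SE).

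Some markers of other cells were as high as leading guidance genes, among them the endothelial gene Tek with a mean of 14.4 RPKM and the Schwann cell gene S100b with 9.40 RPKM. A mean of at least 1 RPKM was reached by 4 of 7 leukocyte, 4 of 8 Schwann cell, 2 of 8 pericyte, 1 of 8 endothelial, 1 of 6 neuron and 0 of 8 epithelial markers. Their summed levels overlapped between the groups for endothelial, Schwann cell, pericyte, epithelial and leukocyte markers and did not overlap for neuron markers. Endothelial markers summed to 72.0 and 168 CPM in KO-labelled libraries and 158 and 135 CPM in WT over 8 genes, most of it from Tek, with Tie1 at 0 reads in each library. Schwann cell markers summed to 118 and 78.9 CPM in KO-labelled libraries against 99.9 and 55.6 CPM in WT over 8 genes. Pericyte and smooth muscle markers summed to 48.2 and 35.1 CPM in KO-labelled libraries against 22.0 and 40.0 CPM in WT, with 7 of 8 genes positive, against 50.6% of all genes tested, and 4 apart above WT, against 14.6%. Of these, Rgs5 had 51.97 and 173 reads in KO-labelled libraries against 2.955 and 0 reads in WT, and Cnn1 had 31.94 and 109.9 reads in KO-labelled libraries against 0.9467 and 0 reads in WT, both at an unadjusted p under 0.05 in edgeR. Epithelial markers summed to 2.39 and 7.38 CPM in KO-labelled libraries against 5.74 and 1.89 CPM in WT. Neuron markers gave 14.9 and 11.7 CPM in KO-labelled libraries against 10.3 and 4.30 CPM in WT over 6 genes, with both KO-labelled libraries above both WT libraries and Tubb3 the main source in 3 of 4 libraries. Snap25, a defining neuron gene, had 0.9878 and 3 reads in KO-labelled libraries and 0 and 13 reads in WT. Leukocyte markers are given above with Plxnc1. The part of these cells in the guidance gene levels was not tested.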

How the data were processed

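RNA was measured in 4 libraries, grouped by their titles. The deposited tables hold, per the file headers, an estimated count of reads per gene, not normalised, and RPKM as scaled by the authors. Per the file headers, the authors also computed a score per gene (a Z-score) from RPKM. The authors also deposited RPKM divided by a root mean square, which is a ratio. Neither entered a test. Per the submitters' processing notes, which give no roles, the tools were Cuffdiff 2.2.1, Cufflinks and STAR 2.4.0 and the build was mm9. Between 8.85% and 12.0% of counts were not whole (tolerance 1e-09). The counting step is not given in the sources used here.

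Counts were rounded and filtered with filterByExpr (minimum count 10, total 15), which left 12494 genes. They were scaled by TMM (factors 0.8325 to 1.122) and tested with edgeR 4.0.16 in R 4.3.3 (quasi-likelihood, genotype as the only term, two-sided, Benjamini-Hochberg over all genes tested, threshold 0.05). The code was also run on simulated counts with large planted changes. Its pass mark for finding them was set at a smaller spread than that of these data. Here the common biological coefficient of variation, the spread between libraries beyond counting, was 0.742. The simulation therefore does not show which changes could be found here. The SE of an edgeR log2 fold change was taken as its absolute value over the square root of the quasi-likelihood F. It was not estimated apart from that test. For genes at or near 0 reads in a group, such as Ephb6 and Ntn3, the fold change also depends on a prior count of 0.125. RPKM was not scaled by TMM. Its denominator per gene read was 1.12 times as large in WT 2 as in Per3 KO 1, and transcript lengths differed between libraries by over 5% for Sema4f, Nrp2 and Epha7. Every pair of libraries differed by more than counting noise (chi-square over its degrees of freedom from 157 to 1040).

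The members and lists were chosen with earlier results of these data known. Genes given in each library were the 2 highest per family, those with at least 10 RPKM, up to 6 per direction whose groups did not overlap, and any that passed. Other genes given were picked after their values were seen. Alternatives were no filter, DESeq2 1.42.0, its size factors in edgeR, limma 3.58.1 on log2(RPKM + 0.5) for genes with a mean of at least 1 RPKM, a block for the replicate number, and fits without each library, where a lone library is taken to vary as the other group does. A floor of 3 reads covers counting error only.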

Additional observations from a re-analysis of the deposited data

How the results depend on the processing

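No guidance gene passed under any of the alternatives run. Over all genes tested, 0 passed in edgeR and with DESeq2 size factors in edgeR, 4 with no filter, 14 with DESeq2, 1 with limma on log2(RPKM + 0.5) and 1 with the replicate number as a block. With a library left out, 1 to 4 passed. Same-numbered libraries deviated from their group means with r = -0.142 across genes, and crossed ones with r = 0.142. With 2 libraries a group these values mirror each other, so they cannot decide whether the numbers pair the samples. A crossed pairing, added after seeing the data, gave 2 calls among all genes and 0 among guidance genes. The number of guidance genes with a mean of at least 1 RPKM was 16, and 25 at 0.5 RPKM, 7 at 5 RPKM and 12 at 1 RPKM in every library. It was 16 to 17 with a library left out.

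Of the 26 tested guidance genes named by the rule, 8 kept their sign in each alternative that was fitted for them. Of these, 7 did not pass the filter of limma and were not fitted with it. All 8 had groups that did not overlap in CPM, so their sign with a library left out was all but fixed in advance. Another 17 changed sign with some library left out. Their ranges of log2 fold change with a library left out were -0.19 to 0.31 for Sema3c, -0.23 to 0.97 for Sema4a, -0.33 to 0.19 for Nrp1, -0.34 to 0.27 for Plxna1, -0.24 to 1.55 for Plxnb2, -0.12 to 0.51 for Slit2, -0.35 to 0.33 for Slit3, -0.54 to 0.58 for Robo1, -0.69 to 0.09 for Ntn1, -2.64 to 0.75 for Unc5b, -0.84 to 1.03 for Efna1, -0.07 to 0.63 for Efna5, -0.62 to 0.30 for Efnb1, -0.98 to 0.62 for Epha1, -0.04 to 1.43 for Epha3, -0.78 to 0.27 for Ephb3 and -0.56 to 0.29 for Ephb4. Limma on RPKM, which was not scaled by TMM, had a median of 0.27 over the 8290 genes it fitted. The main edgeR fit had a median of 0.01 over 12494 genes. Limma turned the sign for Sema3b (0.01), Nrp1 (0.22), Plxna1 (0.21), Efna1 (0.18), Efnb1 (0.10), Epha1 (0.00) and Ephb4 (0.07). The replicate block turned it for Robo1 (0.01) and Efna1 (0.04). The cause was not tested.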
